A study of Mus musculus with 80 samples.

Results

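The proteasome subunit genes are the genes of the barrel-shaped protease that degrades ubiquitin-tagged proteins, and of the caps, chaperones and inhibitor that act with it. Members were the gene symbols in the deposited table that start with Psma, Psmb, Psmc, Psmd, Psme, Psmf or Psmg followed by a digit. This rule found 49 of the 10842 genes, and all 49 passed the filter on low values that kept 10188 genes for testing. Of the 49 symbols, 2 belong to interacting proteins and not to subunits: Psmc3ip, a partner in meiotic recombination, and Psme3ip1, which binds the activator Psme3. Psmd10 and Psme2b were not analysed here.

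Expression was measured with barcoded probes against the mouse transcriptome (NanoString GeoMx) in 80 regions of 8 µm frozen cross sections of tibialis anterior, a shin muscle. The tau group was 6 C57Bl/6 mice that expressed P301L tau, a human tau mutant linked to dementia, and the control group was 6 C57Bl/6 mice. The labels give both groups the genotype WT, and the name of the deposited data includes AAV8, a viral vector. The sources used here do not give what the control mice received, the promoter that drove tau or the ages, apart from the statement that controls were matched for sex and age. Each region carried 1 of 4 labels: central nuclei (fibres with nuclei at their centre), nerve bundle, surrounding artery, or normal fibres. There were 39 tau regions and 41 control regions, and tau animal T30 had no central nuclei region. The name of 1 central nuclei region of tau animal T7 includes FLAG, and this region was kept. The sections lay on 3 slides, numbered here in the order of the file header, with 2 tau and 2 control animals on each. The labels call 4 tau animals female and 2 male, and 3 control animals female and 3 male, whereas the design text gives 3 per sex and treatment.

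The proteasome has a core particle and regulatory caps. The core is built of rings of alpha subunits, which gate the chamber, and beta subunits, of which Psmb5, Psmb6 and Psmb7 carry the catalytic sites. In the immunoproteasome, which interferons induce, Psmb8, Psmb9 and Psmb10 take the places of Psmb5, Psmb6 and Psmb7. The regulatory particle has a base, whose Psmc ATPases unfold the substrate, and a lid, which removes the ubiquitin chain. The Psme activators form other caps. In skeletal muscle the proteasome degrades sarcomere proteins during fibre loss, and tau is one of its known substrates.

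Values are third-quartile (Q3) normalised probe counts, called normalised values below. Regions of an animal were averaged, so that n counts animals. Total counts per region, estimated from the step between low values, ran from 145487 to 3356106. They had a median of 552840 on slide 1, 2248737 on slide 2 and 1292899 on slide 3. Background, read as the negative probes (which have no target in the mouse), averaged 25.8 ± 5.24 on slide 1 (SD, 27 regions), 46.1 ± 2.99 on slide 2 (25 regions) and 34.8 ± 5.16 on slide 3 (28 regions). By treatment its median was 28.4 in tau and 24.4 in control regions on slide 1, 46 in tau and 46.2 in control regions on slide 2, and 39 in tau and 30.7 in control regions on slide 3. Over all slides the median total count was 1499808 in tau regions and 744212 in control regions. Tau regions therefore had more counts and, on slides 1 and 3, a higher background.

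The region labels were compared with marker genes. All 6 smooth muscle markers tested had values above those of normal regions around arteries, and Acta2, smooth muscle actin, was higher in 12 of 12 animals (log2 difference 1.14 ± 0.17 SE, adjusted p = 0.00424, limma). In nerve bundle regions 3 of 5 Schwann cell markers tested had log2 differences above 0 from normal regions, with a median of 0.05, and none passed, so that these markers did not set the nerve bundle label apart at the threshold. The summed value of 10 myofibre genes in central nuclei regions ran from 31975 to 135253 in tau animals and from 48278 to 253906 in control animals. In normal regions it ran from 26959 to 195062 in tau animals and from 57027 to 247674 in control animals. These ranges overlapped. They span the slides and are not paired within the animal, so they cannot show whether the sum sets the central nuclei label apart. In a section region of this kind, fewer cells of a type and less RNA per cell cannot be told apart.

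Signal over background placed most members well above the typical gene. The median over members of the log2 ratio to the negative probe was 1.64, against 0.64 over all genes, and 47 of 49 members lay above that all-gene median. These ratios are per probe and do not give the order of abundance between genes, since probes differ in efficiency. Among core subunits the highest were Psmb7, the trypsin-like catalytic subunit, at a log2 ratio of 3.17 with a median normalised value of 315, and Psma7, an alpha ring subunit, at 2.71 with a median of 230. In the alpha ring the ratio otherwise ran down to 0.69 for Psma8, a testis-specific alpha subunit. The 4 structural beta subunits Psmb1, Psmb2, Psmb3 and Psmb4 lay close together, between 1.86 and 2.14.

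In the regulatory particle, Psmc3 led the 6 base ATPases at 2.33, and Psmd4, a ubiquitin receptor of the base, reached 2.56. The 8 lid subunits ran from 1.49 for Psmd8 to 2.29 for Psmd11. Psme4, which caps the core in nuclei and testis, led the 4 activators at 2.14. Psmf1, an inhibitor of the core, stood at 1.32. The chaperones were lower: 1.18 for Psmd9 and 1.17 for Psmd5, which help to build the base, and 1.01 at most (Psmg2) for the 4 that build the core. Psmg3 was the lowest subunit or chaperone at 0.48, and reached 1.5 times the negative probe in 24 of 80 regions.

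The immunoproteasome catalytic subunits did not share a level. Psmb8 had a log2 ratio of 2.12 and a median value of 155, whereas Psmb9 was at 1.07 (median 76) and Psmb10 at 0.96 (median 71.1). Psmb11, the catalytic subunit of the thymus-specific proteasome, read 1.14 with a median of 75.2, and was at or over 1.5 times the negative probe in 79 of 80 regions. Psme2, the interferon-inducible partner of Psme1, had a median of 70.6 and a log2 ratio of 0.94. By this ratio Psmb9, Psmb10 and Psme2 lay under the thymus-specific Psmb11. Whether signals this low came from the named transcripts was not tested.

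**Figure D1:**
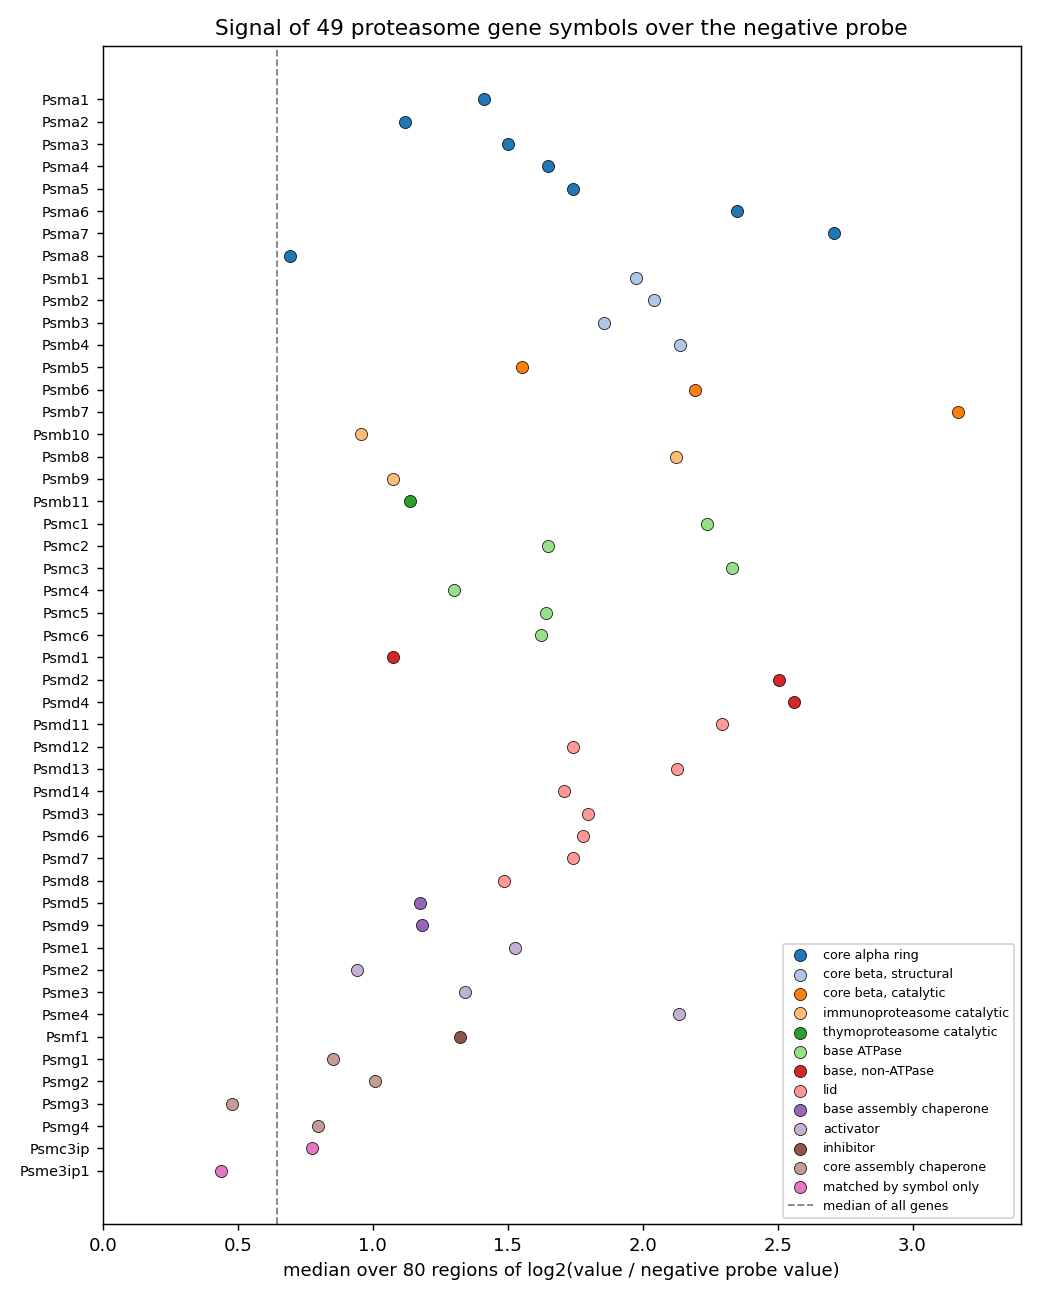
Signal of the 49 symbols over the negative probe, as the median over 80 regions of the log2 ratio, coloured by role; the dashed line is the median of all genes (0.64). Psmb7 stands highest at 3.17 and Psme3ip1 lowest at 0.44.

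Promoter sequences are shown for the members that led the comparison of tau with control, Psmd13, Psmd11, Psma7 and Psmb8, and for Psmb5, the constitutive counterpart of Psmb8. Each is the 250 bases before the annotated start, 5′ to 3′ on the gene's strand, from RefSeq with build GRCm38.p6. They lie at chr7:140882144-140882393 (plus strand) for Psmd13, chr11:80428365-80428614 (plus) for Psmd11, chr2:180042465-180042714 (minus) for Psma7, chr17:34197945-34198194 (plus) for Psmb8 and chr14:54617996-54618245 (minus) for Psmb5. Capitals mark any match, on either strand, to the motifs TGACNNNGC, the core of the antioxidant response element bound by Nfe2l1 and Nfe2l2, CCAAT, the box bound by NF-Y, and a pair of GAAA blocks with 2 bases between them, the core of interferon response elements.
Psmd13: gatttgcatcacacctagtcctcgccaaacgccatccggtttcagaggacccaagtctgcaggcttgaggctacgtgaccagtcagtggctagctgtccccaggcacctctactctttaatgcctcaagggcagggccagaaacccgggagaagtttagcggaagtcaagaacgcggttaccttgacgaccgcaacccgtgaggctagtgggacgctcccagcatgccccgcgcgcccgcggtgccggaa
Psmd11: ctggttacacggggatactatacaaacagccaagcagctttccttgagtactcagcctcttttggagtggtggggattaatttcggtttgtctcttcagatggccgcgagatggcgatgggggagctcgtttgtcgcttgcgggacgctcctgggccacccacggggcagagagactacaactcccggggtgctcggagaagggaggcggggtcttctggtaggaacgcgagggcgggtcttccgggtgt
Psma7: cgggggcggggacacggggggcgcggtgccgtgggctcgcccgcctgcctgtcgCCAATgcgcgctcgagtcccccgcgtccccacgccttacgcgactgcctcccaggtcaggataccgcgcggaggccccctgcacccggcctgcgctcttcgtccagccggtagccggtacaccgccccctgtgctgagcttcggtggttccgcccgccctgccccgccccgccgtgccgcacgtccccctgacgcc
Psmb8: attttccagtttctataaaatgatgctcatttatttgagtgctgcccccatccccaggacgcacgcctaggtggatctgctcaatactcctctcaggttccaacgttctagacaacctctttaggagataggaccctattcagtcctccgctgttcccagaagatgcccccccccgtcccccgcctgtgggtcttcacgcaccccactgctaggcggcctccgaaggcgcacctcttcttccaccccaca
Psmb5: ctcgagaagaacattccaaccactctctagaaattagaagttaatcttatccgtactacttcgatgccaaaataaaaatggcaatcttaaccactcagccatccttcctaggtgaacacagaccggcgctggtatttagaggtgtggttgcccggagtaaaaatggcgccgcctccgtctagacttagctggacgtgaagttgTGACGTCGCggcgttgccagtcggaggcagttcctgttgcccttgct

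No motif was matched in the windows of Psmd13, Psmd11 or Psmb8. A single CCAAT was found in Psma7, starting at position -196 from the start of the gene, and a single TGACNNNGC in Psmb5, starting at -47; no matches overlapped. Of the 41 members with a promoter in the table, 5 (12.2%) held TGACNNNGC, against 10.1% of 27025 promoters of the same length: Psmb5, Psmb6, Psmc6, Psmd9 and Psmd12. CCAAT was found in 14 members (34.1%), against 34.5% of all promoters. The paired GAAA blocks were found in 3 members (7.32%), namely Psmb3, Psmd4 and Psmd9, against 3.04% of all promoters.

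Tau was first compared with control over the mean of the 3 region types that every animal had (normal, nerve bundle and surrounding artery), to ask whether proteasome genes differ in tau muscle. No member passed an adjusted p of 0.05 (limma with slide as covariate, adjusted over 10188 genes), and neither did any other gene: 0% of genes were called. At an unadjusted p under 0.05 there were 13 members (26.5%), against 19.9% of all genes. The median log2 difference was 0.11 over members and 0.09 over all genes, and 33 of 49 members were above 0, against 72.3% of all genes. Over all genes, the median fell from 0.14 in the 2nd to -0.02 in the 9th and -0.07 in the highest of 10 equal bins of mean level. The 19 members in the 9th bin had a median of 0.00, and the 15 in the highest bin 0.08. No test was made of members against genes of like level. The median 95% interval of a member reached 0.18 on either side, so differences under that size were not resolved. That interval is not adjusted for the number of genes, and larger differences could also go uncalled. In simulated data modelled on tau against control in normal regions, the fit called 6% of genes changed by 0.3. It called 76% of those changed by 0.6 on the log2 scale. Calls appeared under some alternatives: Psmd13 and Psmd11 passed when only the 3128 genes with stronger signal were tested (8.54% of those genes passed). Psmd13, Psmd11 and Psma7 passed without tau animal T7 (3.64% of genes), and Psmd13 passed without control animal C3 (1.73% of genes).

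The smallest p-values belonged to Psmd13 and Psmd11, subunits of the lid, then to Psma7 and Psmb8. Psmd13 had normalised values of 149, 145, 205, 187, 177 and 165 in the tau animals and 117, 109, 179, 142, 135 and 141 in the control animals. Within each slide both tau animals were above both control animals, but the groups overlapped across slides. Its log2 difference was 0.33 ± 0.08 (SE; adjusted p = 0.0718), with 0.38, 0.29 and 0.31 on slides 1, 2 and 3. Psmd11, a scaffold of the lid, read 179, 143, 237, 207, 204 and 196 in tau animals and 129, 130, 205, 174, 147 and 142 in control animals. The difference was 0.33 ± 0.09 (SE; adjusted p = 0.0853), and again each slide had its tau animals on top. Psma7 read 249, 228, 292, 253, 259 and 244 in tau animals and 185, 184, 240, 221, 215 and 216 in control animals. Its groups overlapped through control animal C3 alone (difference 0.28 ± 0.08 SE, adjusted p = 0.111).

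Psmb8 gave 161, 109, 234, 199, 171 and 155 in tau animals, against 102, 103, 199, 176, 121 and 132 in control animals. The difference was 0.31 ± 0.10 (SE; adjusted p = 0.131), with wide overlap that followed the slides. With the negative probe value as a further covariate the difference was 0.09 for Psmb8 and 0.18 for Psmd11, and it was 0.27 for Psmd13 and 0.20 for Psma7. With that value subtracted instead, the difference was 0.33 for Psmb8, 0.36 for Psmd11, 0.36 for Psmd13 and 0.28 for Psma7. Beside the background, 5 of 5 Schwann cell markers tested had log2 differences above 0 over the same animals, against 72.3% of all genes. None of these markers passed. The summed value of all 6 markers in the table was 296 to 557 in tau and 283 to 486 in control animals, with none listed at 0. The part of these markers in the members' differences was not tested.

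**Figure D2:**
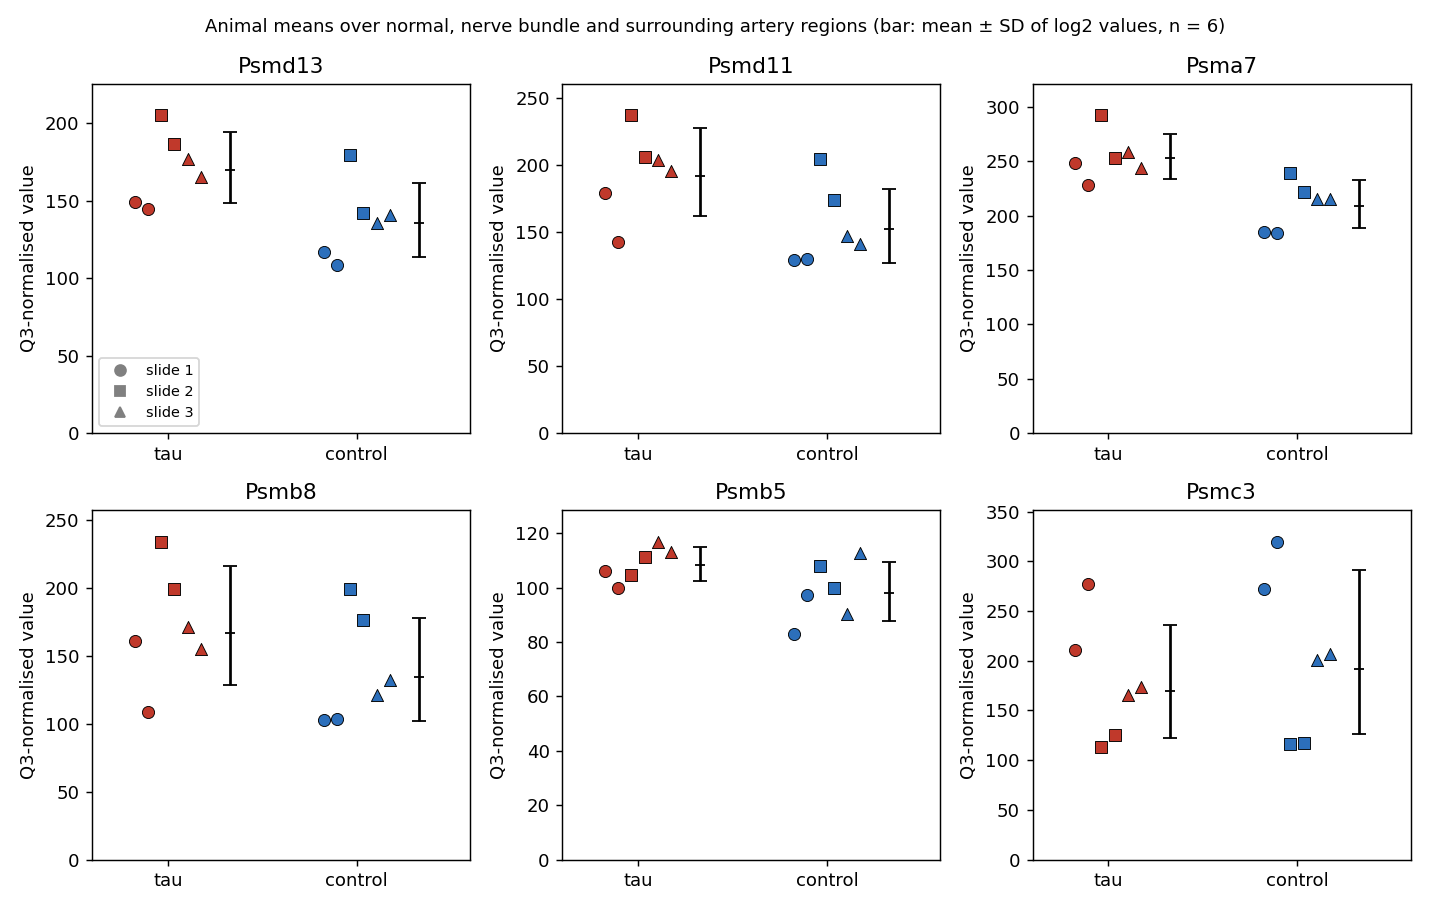
Normalised values of 6 members per animal (mean over normal, nerve bundle and surrounding artery regions), tau left and control right, with marker shape for the slide and bars for the mean ± SD of log2 values (n = 6 each). Psmd13, Psmd11 and Psma7 sit higher in tau within each slide, and Psmc3 falls into steps by slide.

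The catalytic subunits of the constitutive core and of the immunoproteasome were set side by side over the same mean. Psmb5, the chymotrypsin-like subunit, had a lowest, median and highest value of 99.9, 109 and 117 in tau animals and 83.1, 98.6 and 113 in control animals (log2 difference 0.14 ± 0.08 SE). Psmb6, the caspase-like subunit, had 140, 158 and 173 in tau and 118, 157 and 172 in control animals (0.08 ± 0.08). For Psmb7 the values were 304, 330 and 353 in tau and 250, 293 and 322 in control animals (0.20 ± 0.09). All 3 groups of values overlapped. Psmb9 read 49.8, 74.1 and 108 in tau and 44.2, 69.2 and 104 in control animals (0.13 ± 0.10), and Psmb10 read 50.1, 69.6 and 87.2 in tau and 39.7, 56.5 and 88.9 in control animals (0.27 ± 0.11). The activator subunit Psme1 had 86.0, 109 and 126 in tau and 86.3, 110 and 128 in control animals (-0.02 ± 0.09). Its partner Psme2 had 48.1, 73.2 and 92.5 in tau and 51.2, 56.3 and 88.0 in control animals (0.21 ± 0.09). Adjusted p-values of these 7 genes ran from 0.209 for Psmb10 to 0.921 for Psme1. With the negative probe value as a further covariate, the differences were 0.06 for Psmb5, 0.13 for Psmb6, -0.09 for Psmb9, 0.04 for Psmb10 and 0.04 for Psme2, beside the 0.09 of Psmb8. Background subtraction gave 0.11 for Psmb5, 0.47 for Psmb10 and 0.21 for Psme2. Over the 22 alternative settings of this comparison, the negative probe covariate included, Psmb7 had 0.17 to 0.26 and Psme1 -0.13 to 0.13.

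By role, without that covariate, the medians of the log2 differences were 0.27 for the 3 immunoproteasome catalytic subunits, 0.14 for the 3 constitutive ones, 0.19 for the 4 core assembly chaperones, 0.09 for the 8 alpha subunits and 0.06 for the 8 lid subunits. They were -0.03 for the 4 structural beta subunits, -0.05 for the 6 base ATPases and -0.06 for the 3 other base subunits. The thymus-specific Psmb11 had a mean log2 value of 6.35 in tau and 6.07 in control animals. For the testis-specific Psma8 these means were 5.94 and 5.68. A larger difference is therefore not particular to the immunoproteasome subunits, and differences between roles were not tested. The lowest single difference was -0.21 ± 0.09 (SE) for Psmd4, followed by -0.18 ± 0.09 for the ATPase Psmc6 and -0.17 ± 0.10 for the ATPase Psmc3. None passed (adjusted p from 0.232 to 0.313). Across the 4 region types taken singly, 25 members (51%) had differences above 0 in each, against 37.8% of all genes, among them all 3 immunoproteasome catalytic subunits and all 4 core assembly chaperones. With the negative probe value as a further covariate, Psmb9 was under 0 in each (-0.01 to -0.11), and Psmb10 was at -0.45 in central nuclei, -0.21 in nerve bundle and -0.04 in surrounding artery regions. Another 7 (14.3%, against 11.8% of all genes) had differences under 0 in each without that covariate: Psma4, Psma5, Psmc3, Psmc6, Psmd4, Psmd7 and Psmd14. The region types share animals and slides and are not independent of each other.

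In normal fibre regions no member was called, as no gene was (0%). At an unadjusted p under 0.05 there were 10 members (20.4%), against 13.5% of all genes, and the median difference was 0.06 over members and 0.06 over all genes. By level, members had -0.05 and all genes -0.02 in the 9th of 10 bins, and 0.06 and -0.07 in the highest. No member, and 0.0785% of genes, had tau animals that did not overlap the control animals. The member with the smallest p was the ATPase Psmc3, with 222, 241, 99.7, 117, 167 and 178 in tau animals and 284, 402, 128, 127, 205 and 207 in control animals. On each slide both tau animals were under both control animals (log2 difference -0.35 ± 0.11 SE, adjusted p = 0.212). For Psmd13 the difference was 0.28 ± 0.10 (adjusted p = 0.264), and for the ATPase Psmc2 it was 0.28 ± 0.11 (adjusted p = 0.270).

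Fibres with central nuclei gave the largest fitted difference of Psmb8 among the 4 region types, but over a set of animals without T30. Over the mean of 3 region types T30 had the lowest Psmb8 of the tau animals (109). Whether the contrast with normal regions depended on tau is tested below, and Psmb8 did not pass. Psmb8 read 147 (slide 1), 228 and 196 (slide 2) and 173 and 192 (slide 3) in the 5 tau animals with central nuclei regions. Control animals gave 91.8, 93.7, 201, 177, 141 and 97.8. Slides 1 and 3 were apart, by log2 differences of 0.66 and 0.63, and slide 2 by 0.16. The fitted difference was 0.46 ± 0.12 (SE; adjusted p = 0.0774). With the negative probe value as a further covariate it was 0.01. Psmd13 had a difference of 0.36 ± 0.10 (adjusted p = 0.0852) and Psma7 one of 0.34 ± 0.10 (adjusted p = 0.0922), which became 0.20 and 0.16 with that covariate. After background subtraction the differences were 0.52 for Psmb8, 0.39 for Psmd13 and 0.36 for Psma7. No member was called and 0% of genes were. At an unadjusted p under 0.05 there were 11 members (22.4%), against 20.6% of all genes, and the member median was 0.06, against 0.08. By level, the member median was -0.03, against -0.07, in the 9th of 10 bins, and -0.01, against -0.18, in the highest. Psmb8, Psmd13 and Psma7 passed among the 3128 genes with stronger signal (14.5% of those genes passed), Psmd13 and Psma7 after quantile normalization (2.28% of genes), and Psmb8 without tau animal T7 (3.56% of genes).

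Several other lists are given for these fibres. Leukocyte markers had a summed value of 360 to 454 in tau and 236 to 435 in control animals over 9 genes, with none at 0, and 0 of 3 tested passed. Regeneration markers summed to 227 to 332 in tau and 197 to 315 in control animals over 5 genes, and 0 of 4 tested passed. The antigen presentation and interferon list summed to 618 to 945 in tau and 614 to 849 in control animals over 11 genes, with 0 of 9 tested passing and a median log2 difference of 0.08. The part of these lists in the Psmb8 values was not tested.

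In nerve bundle regions 0% of genes and no member were called. There were 9 members (18.4%) at an unadjusted p under 0.05, against 12.6% of all genes, with a median of 0.16 over members and 0.11 over all genes. By level, members had 0.02 and all genes -0.01 in the 9th of 10 bins, and 0.07 and -0.08 in the highest. In the same comparison 5 of 5 Schwann cell markers tested were above 0 (median 0.45, 3 at an unadjusted p under 0.05, none passing), against 69.9% of all genes. The part of these markers in the members' values was not tested. Psma7 was the only member whose tau and control animals did not overlap, which held for 0.285% of genes. It read 242, 230, 300, 255, 267 and 249 in tau and 180, 179, 221, 215, 217 and 214 in control animals (log2 difference 0.33 ± 0.11 SE, adjusted p = 0.338). Psmd11 had a difference of 0.41 ± 0.12 (adjusted p = 0.318) and Psmd13 one of 0.35 ± 0.12 (adjusted p = 0.338). The largest difference was that of Psmb10, at 0.53 ± 0.30 (adjusted p = 0.446). The lowest tau value was 49.4, and 3 control animals read 33, 43.3 and 15.8. The value of 15.8 came from the region with the lowest total (145487), in which 1 count is worth 7.91. The Psmb10 difference was -0.21 once background entered the model as a covariate, 0.28 after quantile normalization and 0.96 after background subtraction, so its direction was not settled. With that covariate Psmd11 had 0.20, and after background subtraction 0.43.

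Around arteries, again with 0% of genes and no member called, Psmd13 had the smallest p among members. It read 146, 157, 210, 185, 185 and 168 in tau and 121, 109, 184, 142, 140 and 136 in control animals (log2 difference 0.34 ± 0.10 SE, adjusted p = 0.158). Psmd11 followed with 0.34 ± 0.11 (adjusted p = 0.204; 0.21 with the negative probe covariate) and Psma7 with 0.27 ± 0.09 (adjusted p = 0.240). After background subtraction Psmd11 had 0.375. The 8 members at an unadjusted p under 0.05 (16.3%, against 12.2% of all genes) included Psmb5, at 0.32 ± 0.11, and the ATPase Psmc6, at -0.28 ± 0.10. Psmb5 read 110, 130, 113, 112, 119 and 105 in tau and 72.6, 74.6, 105, 100, 94.4 and 111 in control animals. Its difference came mostly from slide 1, with 0.69, against 0.13 on slides 2 and 3 each.

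**Figure D3:**
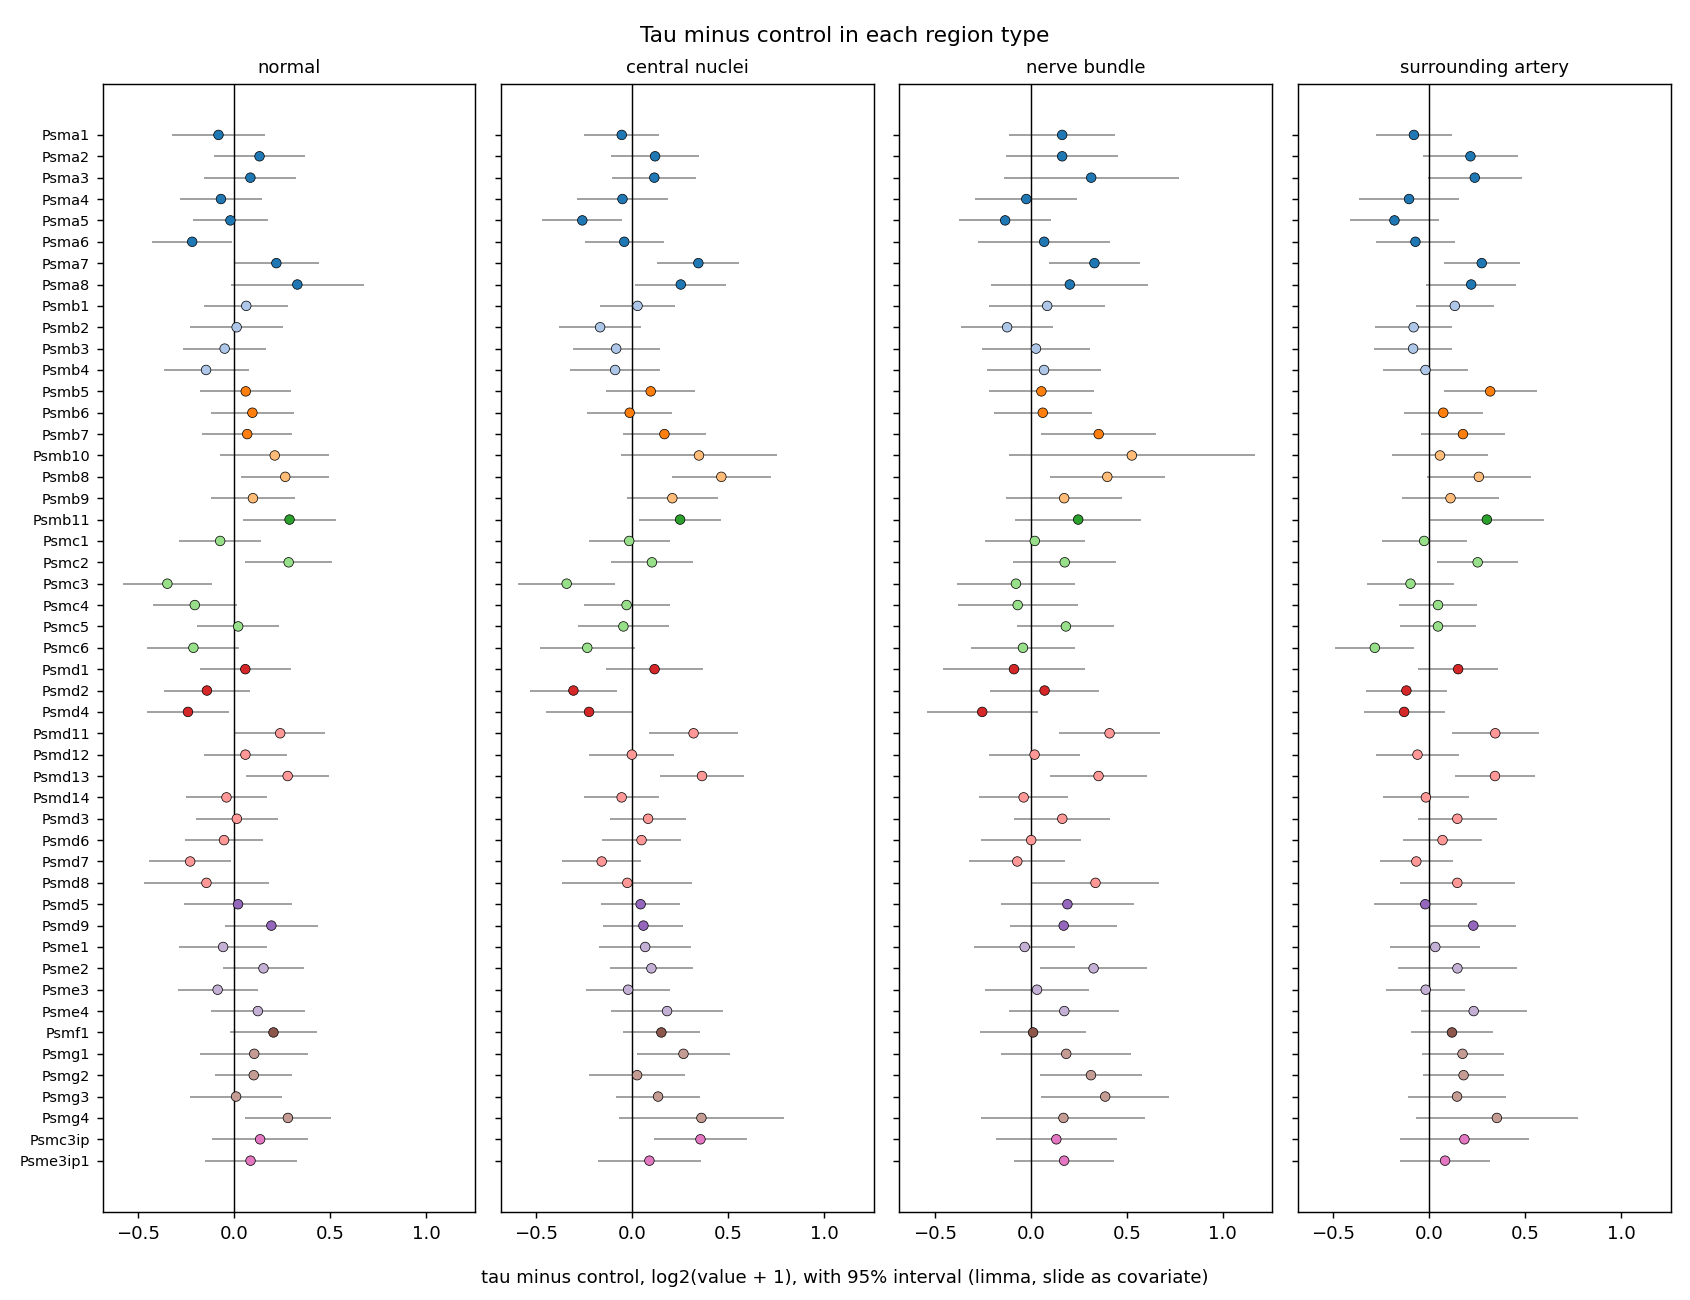
Tau minus control log2 differences with 95% intervals for the 49 symbols in each of the 4 region types, ordered by role (limma, slide as covariate; 11 animals for central nuclei, 12 otherwise). No member passed the adjusted threshold; Psmd13, Psmd11, Psma7 and Psmb8 lie on the positive side in all 4.

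Whether the immunoproteasome subunits shifted against their constitutive counterparts was tested within animals, as the log2 difference of the pair. Across 3 pairs and 7 comparisons, 21 exact permutation tests were made (tau and control exchanged within slides, region types within animals), and none passed after adjustment. The smallest p was for Psmb8 minus Psmb5 in normal fibres, where the pair difference averaged 0.67 ± 0.37 in the 6 tau animals and 0.46 ± 0.34 in the 6 control animals (SD). The shift of 0.21 had an exact two-sided p of 0.00926, the smallest that 216 assignments allow, and an adjusted p of 0.194. No tau test could therefore have passed by itself. In central nuclei fibres the same shift was 0.37 (exact p = 0.0833), in nerve bundle 0.34 (exact p = 0.0556) and around arteries -0.06 (exact p = 0.991). For Psmb9 minus Psmb6 the shifts with tau were 0.00 to 0.22, and for Psmb10 minus Psmb7 they were -0.12 to 0.18, with exact p-values of 0.167 or more. Since probes differ in efficiency, the pair difference itself is not a ratio of transcripts. The negative probe value was not a covariate in these tests. With that covariate in limma, Psmb8 and Psmb5 had differences of 0.12 and -0.03 in normal and 0.01 and 0.05 in central nuclei regions. They had 0.14 and -0.02 in nerve bundle and 0.11 and 0.30 in surrounding artery regions. The pair shift with that covariate was not tested.

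The region types were compared within animals, to ask whether proteasome genes differ between fibres and the tissue around nerves and arteries. In the 11 animals with all 4 types, the range of the 4 type means had a median over members of 0.09 on the log2 scale (0.03 to 0.21). For all 49 members this range was under the SD between animals, slides included, whose median was 0.31. Normal regions were highest for 17 members, central nuclei for 13, surrounding artery for 11 and nerve bundle for 8. These counts were not set against those of all genes. In the 4 contrasts tested below, no neighbours in these orders differed at the adjusted threshold.

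Central nuclei regions had no member past the threshold against normal regions (0% of genes called). At an unadjusted p under 0.05 there were 3 members (6.12%), against 2.85% of all genes. These were Psmf1, the core inhibitor, at 0.17 ± 0.06 (SE; higher in 8 of 11 animals), the ATPase Psmc2 at 0.14 ± 0.06 (8 of 11) and the lid subunit Psmd7 at -0.15 ± 0.07 (higher in 4 of 11), each with an adjusted p of 0.998. Psmf1 had a lowest, median and highest value of 70.7, 93.3 and 117 in central nuclei regions and 49.3, 77 and 118 in normal regions. Nerve bundle regions had 0.00982% of genes called against normal regions, and no member. None reached an unadjusted p under 0.05, against 5.59% of all genes. The members with the smallest p were Psmf1 at 0.13 ± 0.07, Psmb5 at 0.10 ± 0.06, higher in 10 of 12 animals, and Psme3 at -0.10 ± 0.07.

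Surrounding artery regions differed from normal regions in 0.344% of genes, all higher, and in no member. At an unadjusted p under 0.05 there was 1 member (2.04%), against 15.6% of all genes. That member was the structural beta subunit Psmb4, whose lowest, median and highest values were 90.7, 170 and 237 around arteries and 92.0, 153 and 230 in normal regions. Its log2 difference was 0.13 ± 0.05 (SE; adjusted p = 0.249; 9 of 12 animals). The lid subunit Psmd12, at 0.12 ± 0.06, and the alpha subunit Psma4, at 0.09 ± 0.05, came next. In the same comparison 0 of 9 antigen presentation and interferon genes and 0 of 26 proteasome partners passed. Nerve bundle against surrounding artery regions gave 0% of genes called and 1 member at an unadjusted p under 0.05 (2.04%, against 3.73% of genes), again Psmb4, at -0.13 ± 0.06. The median 95% interval of a member reached 0.12 to 0.15 on either side in these 4 comparisons.

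**Figure D4:**
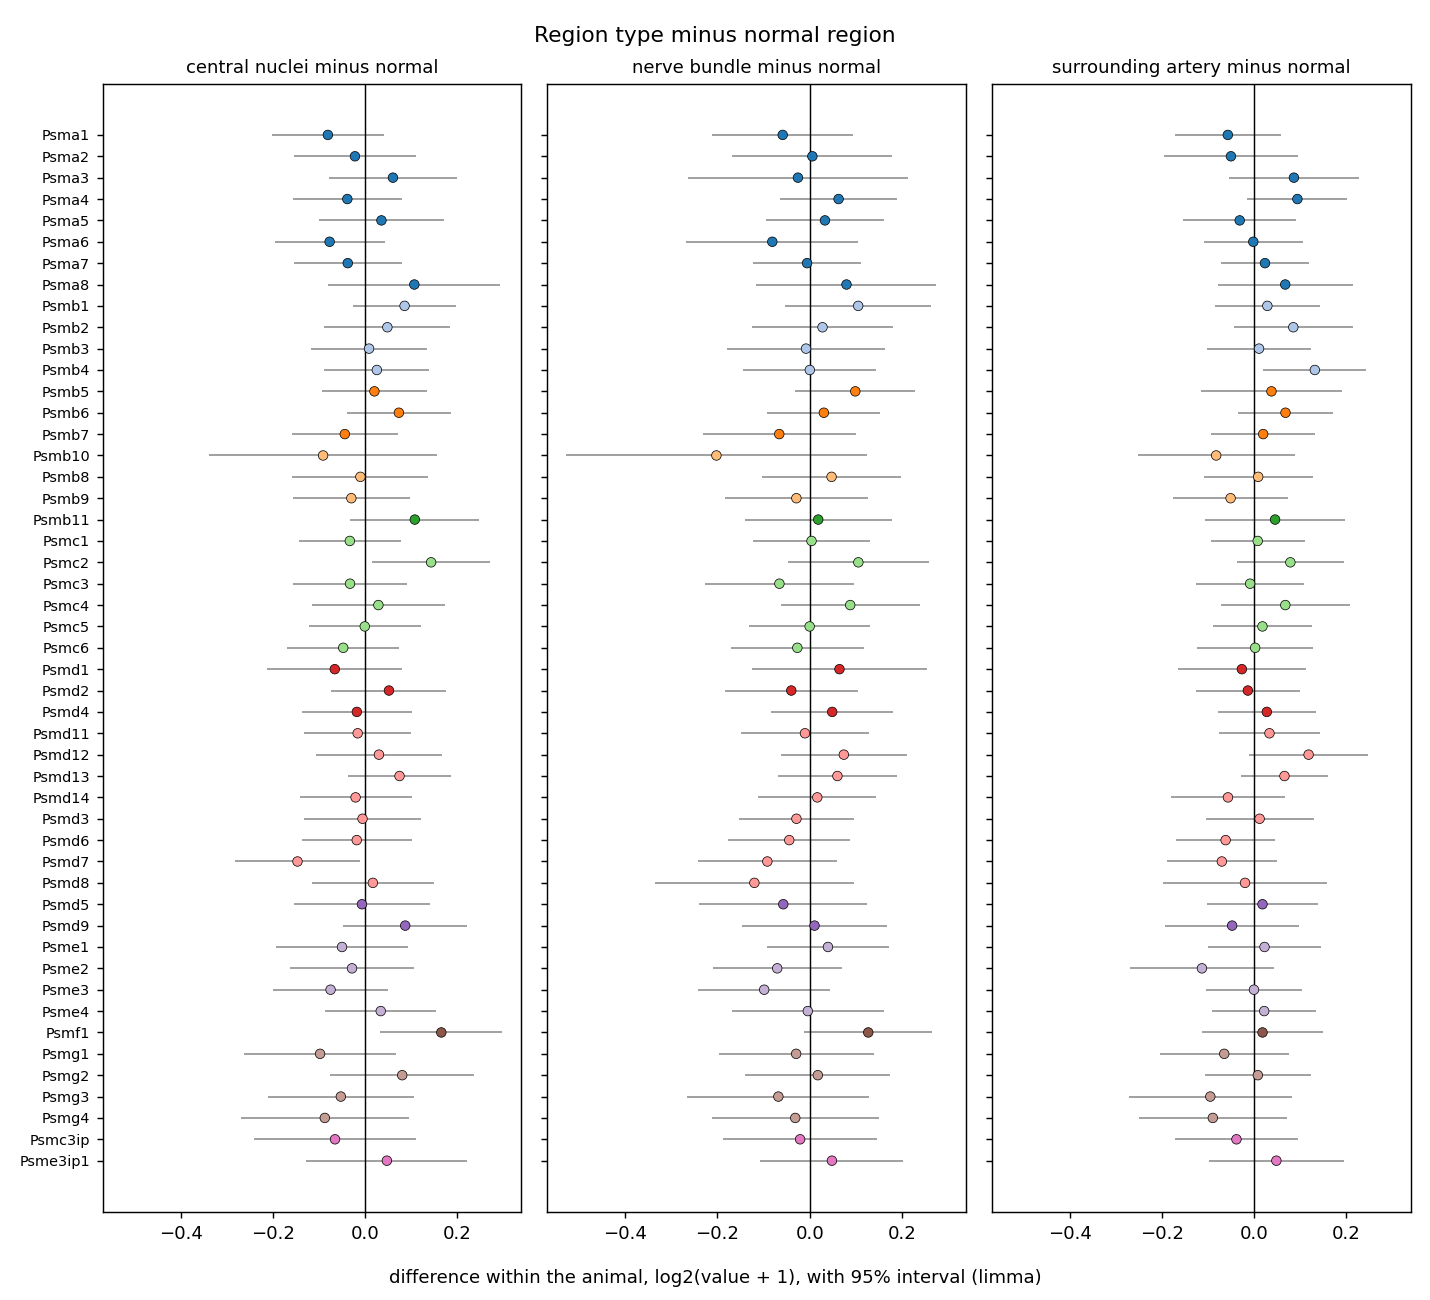
Log2 differences within the animal of central nuclei, nerve bundle and surrounding artery regions from normal regions, with 95% intervals, for the 49 symbols ordered by role (11 animals for central nuclei, 12 otherwise). The points lie between -0.20 and 0.17.

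Interaction terms tested whether these region contrasts depended on tau. No member passed and 0% of genes did, in each of the 3 contrasts. A single member had an unadjusted p under 0.05 in each (2.04%), against 2.94% of genes for central nuclei, 5.75% for nerve bundle and 5.77% for surrounding artery. They were Psma5 for central nuclei minus normal (-0.27 ± 0.12 SE), the lid subunit Psmd8 for nerve bundle minus normal (0.48 ± 0.18) and Psmc3 for surrounding artery minus normal (0.25 ± 0.11). Their adjusted p-values were 0.998, 0.777 and 0.845.

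Members differed most often by slide. With treatment in the model, 39 of 49 members (79.6%) differed between the 3 slides at an adjusted p of 0.05, as did 71.6% of all genes. Members differed in both directions. Psmc3 had animal values of 211 to 320 on slide 1, 113 to 125 on slide 2 and 165 to 206 on slide 3 (adjusted p = 3.7e-06). Psmb4 read 168 to 221, 86.8 to 104 and 152 to 183 on slides 1, 2 and 3 (adjusted p = 9.6e-06). In both genes slides 1 and 2 did not overlap, and slide 3 lay between them in Psmc3 and overlapped slide 1 in Psmb4. Psmb9 went the other way, with 44.2 to 69.3 on slide 1, 95.1 to 108 on slide 2 and 65 to 78.6 on slide 3 (adjusted p = 3.1e-05), and Psmb8 had 102 to 161, 176 to 234 and 121 to 171 (adjusted p = 1.6e-04).

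The log2 difference of slide 2 minus slide 1 was mixed within several roles, and differences between roles were not tested. Above 0 were 4 of 8 alpha subunits (median -0.22), 2 of 8 lid subunits (median -0.30) and 2 of 4 activators (median 0.15). The difference had a median of -0.61 over the 4 structural beta subunits, -0.57 over the 6 ATPases, of which Psmc2 went the other way at 0.21, and -0.77 over the 3 other base subunits, of which Psmd1 did at 0.18. For the 3 immunoproteasome catalytic subunits the median was 0.78, for the 4 core assembly chaperones 0.65, for the 2 base assembly chaperones 0.57 and for the inhibitor Psmf1 0.73. Psmb11 gave 0.84 and Psma8 0.89, values like those of the immunoproteasome subunits. Of the constitutive catalytic subunits, Psmb5 and Psmb7 did not pass (adjusted p = 0.307 and 0.227), and Psmb6 differed by -0.24 (adjusted p = 0.0258).

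Signal over background ran along with these directions. Of the 25 members at or under the median level, 18 were higher on slide 2 than on slide 1, and of the 24 over it, 5 were. The same turn was seen over all genes, whose median slide 2 minus slide 1 difference was 0.49 in the 3rd of 10 equal bins of mean level and -1.11 in the highest bin. The 5 members over the median level that were higher on slide 2 were Psma7, Psmb8, Psmc2, Psmd11 and Psmd13. These 5 are also the members with the 5 smallest p-values in the comparison of tau with control over the mean of 3 region types. Both observations come from the same 12 animals. The higher negative probe values of slide 2 and, by region median, of the tau regions on slides 1 and 3 run the same way. By animal, tau and control backgrounds were apart on slide 3 alone. The part of background in either result was not tested.

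**Figure D5:**
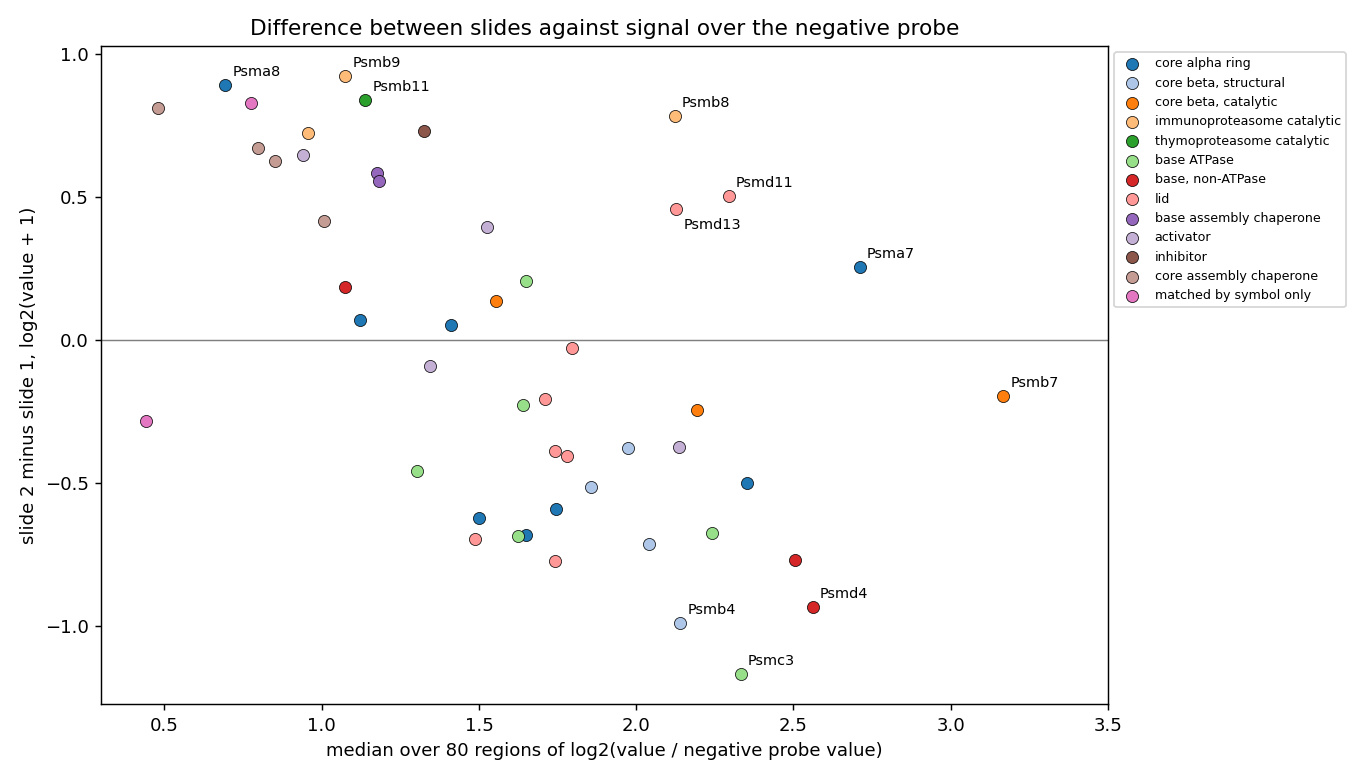
Slide 2 minus slide 1 log2 difference of each symbol against its signal over the negative probe (median over 80 regions), coloured by role. Most low-signal members (18 of 25) lie above 0 and most high-signal members under it, with Psmb8, Psmd11, Psmd13 and Psma7 above 0 on the high-signal side.

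Genes that work with the proteasome were summarised from lists of cofactors and of antigen presentation genes. Of 26 tested partners (ubiquitin receptors and shuttles, deubiquitinases, segregase subunits, ubiquitin genes and regulators), none was called in tau against control, 10 had differences above 0 over the mean of 3 region types, and the median was -0.05, against 0.09 over all genes. The lowest were Vcp, the segregase that extracts ubiquitinated proteins, at -0.41 ± 0.10 (SE; adjusted p = 0.0718), and Nfe2l1, the factor that raises proteasome gene transcription when proteolysis fails, at -0.37 ± 0.12 (adjusted p = 0.139), both named after their values were seen. In central nuclei fibres Vcp had a difference of -0.63 ± 0.11 (adjusted p = 0.0705) and Nfe2l1 one of -0.49 ± 0.12 (adjusted p = 0.0728). The all-gene median in the highest of 10 equal bins of mean level was -0.07 over the mean of 3 region types and -0.18 in these fibres. The partners were not compared with genes of like level. The differences of Vcp and Nfe2l1 with the negative probe covariate are not given here. Of the antigen presentation and interferon genes, 7 of 9 tested were above 0 over the mean of 3 region types, none was called, and the median was 0.10. By slide, 22 of 26 partners and 7 of 9 antigen presentation genes were called, beside 71.6% of all genes.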

How the data were processed

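Probe counts were measured in 80 GeoMx regions from 12 animals. Per the file headers, the authors deposited the signal as Q3-normalised counts, linear and without background subtraction. The submitters' processing notes name the build mm10; the sources used here do not name the counting software. Region totals came from the step between low values (tolerance 0.02) and entered no test; the deposited unit is not counts, so no count model was fitted.

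Genes were tested when at least 1.5 times the negative probe in 10% of regions. Values were log2(value + 1), averaged per animal and region type. Such log2 differences understate the change of low genes. Tau and control were compared with slide as covariate, region types as differences within an animal (the animal in the labels pairs them), and slides by a moderated F test with treatment in the model, using limma 3.58.1 in R 4.3.3 (trend, Benjamini-Hochberg over 10188 genes, threshold 0.05) and the package data.table (version 1.17.8). Tables, promoters and figures were made in Python 3.11.15 with pandas 2.3.3, numpy 2.4.6 and matplotlib 3.10.9. The fits were tested on simulated data. Members and lists were chosen with earlier results of these data known. Named were the catalytic subunits, Psme1 and Psme2; per comparison up to 6 members past the threshold, or otherwise the 3 with the smallest p; the highest member of each role; and up to 3 partner genes past the threshold. Of 49 members, 41 had a promoter in the RefSeq table. Alternatives tried were the pseudocount, filter, normalization, background subtraction, covariates, regions and animals left out. One marker gene is not reported here.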

Additional observations from a re-analysis of the deposited data

Results flagged for a closer look

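Among 46 groups of 5 or 6 animals examined for a sample far from the others, 1 was marked, and chance marks about 1 in 20. Psmd13 in central nuclei fibres read 154 in tau animal T13, against 184 to 196 in the other 4 tau animals of that group. T13 was the only tau animal of slide 1 with such a region, and the control animals of slide 1 read 136 and 112.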

How the results depend on the processing

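Of 2737 values of named members under 24 alternative settings, 2566 kept their direction and their side of the threshold, 12 passed it, 159 changed sign without a call, and 0 reversed. Over the mean of 3 region types, the strict filter (2 times the negative probe in 50% of regions, 3128 genes) gave 2 members called instead of 0, Psmd13 (adjusted p = 0.0300) and Psmd11 (0.0380), with 8.54% of genes called; fewer genes were tested there. In central nuclei fibres the strict filter gave 3, Psmb8, Psmd13 and Psma7, with 14.5% of genes called, and quantile normalization gave 2, Psmd13 and Psma7, with 2.28% of genes called. The cause of the calls under quantile normalization was not tested. Leaving out 1 animal in turn gave 0 to 3 members over the mean of 3 region types: 3 without tau animal T7 (Psmd13, Psmd11 and Psma7; 3.64% of genes) and 1 without control animal C3 (Psmd13; 1.73% of genes). In central nuclei fibres it gave 0 to 1, with Psmb8 called without T7 (3.56% of genes). After adding background to the model the lowest adjusted p among members over the mean of 3 region types was 0.536. With background subtraction the member median there was 0.05. In the region comparisons, the fit without the replicate block (animals unpaired) gave 0 members, as the paired fit did, and changed no call. The count by slide was 32 to 39 over the alternatives. Psmb10, Psme2, Psma8 and 3 of the core assembly chaperones had a median signal under 2 times the negative probe.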
